A study of Mus musculus with 12 samples.

Results

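The neurofilament and neuronal intermediate filament genes Nefl, Nefm, Nefh, Ina and Prph were taken from the counts of all libraries by their gene identifiers, 5 of 37310 genes counted. These genes encode the subunits of the filaments that fill axons. The light subunit (Nefl) forms the core of the filament, the medium (Nefm) and heavy (Nefh) subunits add long tails that are phosphorylated on repeated Lys-Ser-Pro motifs and project from it, and α-internexin (Ina) joins them in neurons of the brain. Peripherin (Prph) takes that place mainly in neurons whose axons reach outside the brain. Neurofilaments are known for setting the width of axons, and hippocampal pyramidal neurons, which send long axons out of the hippocampus, make the subunits of the central type. The genes were grouped with results of these data known, and Nefl and Nefm were chosen by their lower counts in FosB KO TRAP than in WT TRAP libraries, while Nefh, Ina and Prph were added as members of the family. Values that rest on the comparison of genotypes in TRAP libraries are therefore given as a description, without a p-value, for all 5 genes, and how many of them the fit over all genes called is given only as a count from which nothing is read.

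The libraries came from ventral hippocampus (vHPC) of C57BL/6 mice. All mice carried a Cre-dependent GFP-L10a gene at Rosa26, a ribosomal protein fused to GFP, and all received retrograde HSV-Cre in nucleus accumbens (NAc) 3 weeks before collection, so that ribosomes were tagged in neurons with axons in NAc that the vector reached. WT mice had no floxed Fosb allele, and FosB KO mice were Fosb fl/fl, a design in which recombination needs Cre. Ribosomes were pulled down with anti-GFP antibodies (TRAP), and the input library of the same pool held RNA of all cells of the tissue punch. Each genotype gave 3 TRAP and 3 input libraries, 12 in all, each from a pool of mice, which the source label counts as 3 and the protocol as 3 to 4. The pools were numbered 1 to 3 in WT and 2 to 4 in KO, so a shared number links the TRAP and input libraries of a pool but not WT and KO mice. The age of these mice was not given in the sources used here.

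Each library held 3416030 to 5614089 counts on genes. Levels are given as CPM, the rate of a gene among all counts in a library after TMM scaling, and 3 counts stand for 0.534 to 0.878 CPM without that scaling, a floor that covers counting error only. Fosb was lower in every KO library than in every WT library of the same kind, at 18.8 to 29.4 against 32.0 to 45.3 CPM in TRAP and at 14.9 to 17.1 against 22.3 to 30.3 CPM in input. The log2 change was -0.76 in TRAP and -0.68 in input, so the KO libraries kept most of the counts of Fosb, which cover the whole gene and not the floxed exons alone. Input also holds RNA of cells that the vector did not reach, yet its change was about as large as that in TRAP, and the cause was not tested. The libraries showed the markers of their label, since all 11 pan-neuronal markers were detected in every group and their summed level was 12816 to 15105 CPM in TRAP and 11426 to 11524 CPM in input. All 8 astrocyte, 9 oligodendrocyte and 8 microglia markers were lower in TRAP than in input at an adjusted p under 0.05. KO TRAP 2 stood apart in markers of GABA neurons, with Gad2 at 187 CPM against 27.6 and 30.9 CPM in KO TRAP 3 and 4. WT input 1 had counts on 15678 genes against 17255 to 18090 in the other input libraries. It also held fewer counts on genes, 3416030 against 4271780 to 4636374. The changes of Nefl, Nefm and Ina between TRAP and input, and those of all 5 genes between genotypes in input, are also given without these pools.

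Nefl (ENSMUSG00000022055.7) lies on chromosome 14 of mm9 from 68701920 to 68707152 on the plus strand. Nefm (ENSMUSG00000022054.5) spans 68700647 to 68742903 on the minus strand of the same chromosome, and so covers Nefl. Gencode vM1 gives Nefm a transcript of 3 exons that ends far from Nefl, and a transcript of 4 exons whose last exon covers the first 1108 exon bases of Nefl, from 68701920 to 68703027, on the opposite strand. These bases are 32.8% of the exon length of Nefl and 19.2% of that of Nefm. None of the 155 genes of the annotation whose exons are wholly covered by another gene on the opposite strand had any count in any library, and the same held for 356 genes covered on the same strand. This is the pattern of counting that sets aside reads in exon bases shared by several genes, whatever their strand, and the counts of Nefl and Nefm were read as coming from their other exon bases.

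**Figure D1:**
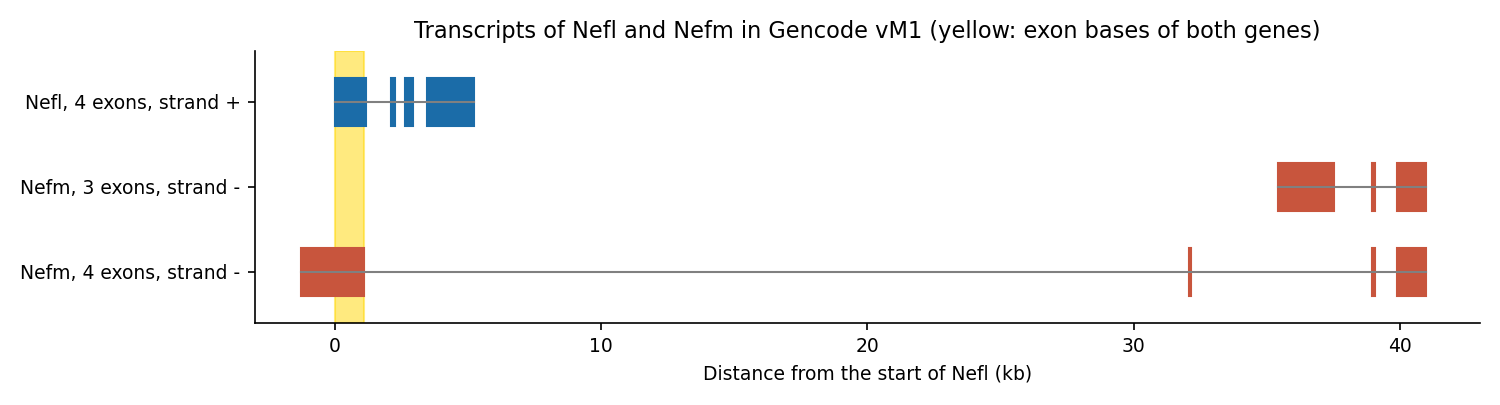
The exons of Nefl and of the Nefm transcripts in Gencode vM1 are drawn as boxes by distance in kb from the start of Nefl, with introns as lines. The yellow band marks the 1108 bases where the last exon of the 4-exon Nefm transcript lies over the first exon of Nefl, and the 3-exon Nefm transcript does not reach it.

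The other genes had less shared sequence. Nefh (ENSMUSG00000020396.7) lies on chromosome 11 from 4838757 to 4848067 on the minus strand and shares no exon base with another gene. Of its 151 exon stretches of 75 bases, 7 aligned to a further place with up to 2 mismatches, all 7 inside Nefh itself. Ina (ENSMUSG00000034336.3) lies on chromosome 19 from 47089188 to 47099817 on the plus strand, and its first 456 exon bases, or 14.1%, are covered by an exon of Nt5c2 on the minus strand. Prph (ENSMUSG00000023484.7) lies on chromosome 15 from 98885605 to 98889409 on the plus strand and overlaps no other gene. No stretch of Nefl, Nefm, Ina or Prph aligned to a further place, so few of their reads should have been set aside for several alignments.

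The promoters of Ina and Prph were read from RefSeq sequence on GRCm38.p6, the 2 of the 5 genes that matched the promoter table, and are shown because FosB binds DNA with a Jun partner at the AP-1 motif. Each run is the 250 bases before the start of the gene on its plus strand, 5′ to 3′, and capitals mark a TATA box.
Ina, chr19:47014431-47014680: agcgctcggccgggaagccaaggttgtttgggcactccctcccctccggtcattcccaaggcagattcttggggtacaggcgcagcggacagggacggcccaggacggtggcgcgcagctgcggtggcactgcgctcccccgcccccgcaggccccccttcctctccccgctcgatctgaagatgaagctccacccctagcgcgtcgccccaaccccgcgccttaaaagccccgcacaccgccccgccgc
Prph, chr15:99054924-99055173: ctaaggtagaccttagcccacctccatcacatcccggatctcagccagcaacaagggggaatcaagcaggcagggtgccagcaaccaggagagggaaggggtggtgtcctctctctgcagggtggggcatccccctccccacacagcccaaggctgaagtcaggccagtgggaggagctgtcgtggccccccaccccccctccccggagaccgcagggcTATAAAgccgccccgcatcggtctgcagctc
The AP-1 motif was searched on both strands as TGANTCA, which 6.75% of 32851 promoters of this length hold, and as the related cAMP response element TGACGTCA, which 1.55% hold. These letters are in neither window. The TATA box, searched as TATAAA on both strands and held by 12.4% of all promoters, is in that of Prph, starting 31 bases before the gene.

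Levels differed widely among the subunits. Levels of different genes were compared as CPM per kilobase of the exon bases that belong to the gene alone, and on this scale Nefl was the highest in every group. In WT TRAP, the level per kilobase was 337 ± 28.8 (SD, n = 3 pools) for Nefl, 165 ± 19.0 (SD, n = 3) for Nefm, 115 ± 10.8 (SD, n = 3) for Ina, 32.2 ± 1.42 (SD, n = 3) for Nefh and 2.74 ± 1.19 (SD, n = 3) for Prph. No neighbours in this order overlapped in WT TRAP, and the same order without overlap was seen in KO TRAP, where Nefm stood at 112 to 125 and Ina at 96.8 to 109 CPM per kilobase. In input, Nefm and Ina did not differ beyond their spread, with 79.6 to 115 for Nefm and 91.3 to 101 for Ina in WT, and 68.4 to 111 for Nefm and 79.1 to 87.0 for Ina in KO. The place of Nefm depends on which transcript is made, since with the length of its 3-exon transcript, chosen after the data were seen, its level per kilobase would be 231 in WT TRAP and 164 in KO TRAP, still between Nefl and Ina. In input it would be 112 to 161 in WT and 95.9 to 156 in KO, above every Ina library of its group, so the overlap of Nefm and Ina in input holds only for the longer length.

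Peripherin was barely detected. The 12 libraries held 5 to 28 counts of Prph each, all above the floor of 3 counts, and its level was 3.06 to 7.46 CPM in WT TRAP and 1.19 to 2.84 CPM in KO input. Neurons that are known for peripherin, such as cholinergic and monoamine neurons, left few reads too. Their 7 matched markers summed to at most 5.23 CPM in any library, and Slc6a4, the serotonin transporter, had no read in any of the 12. The part of such neurons in the Prph counts was not tested.

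**Figure D2:**
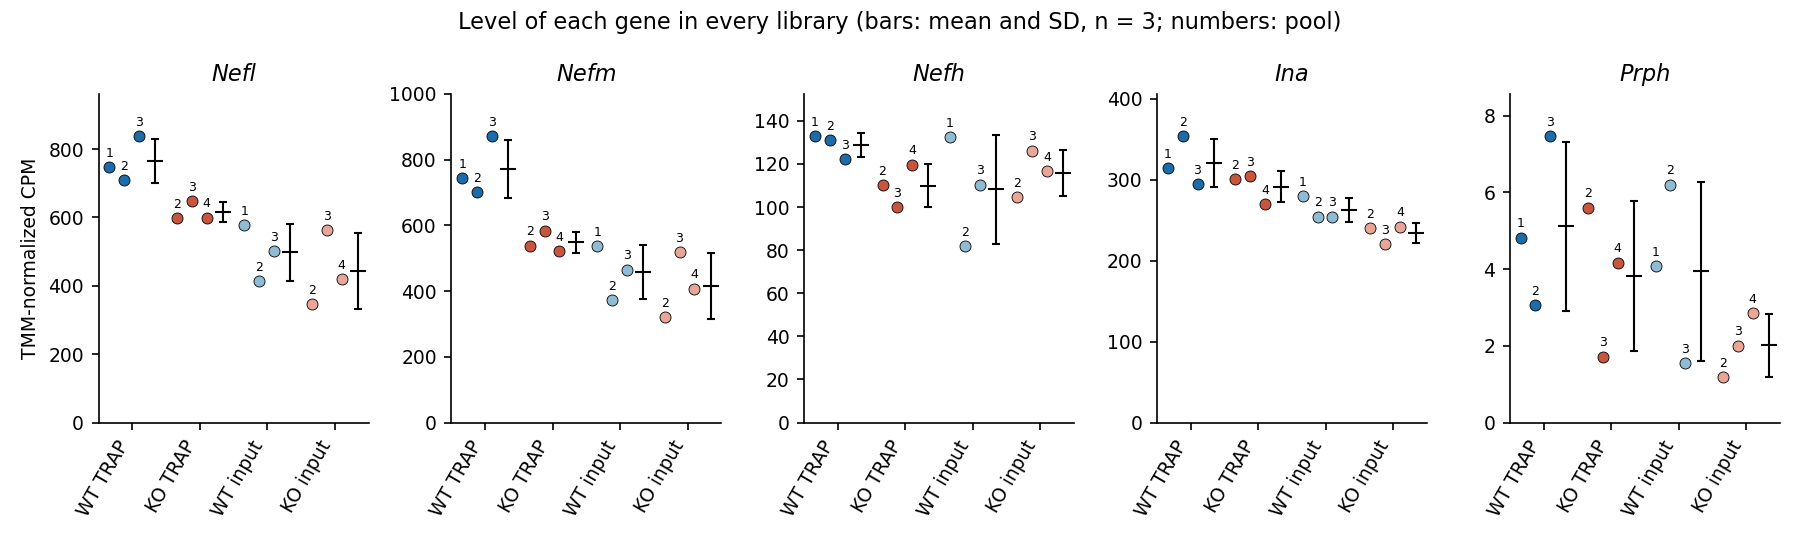
TMM-normalized CPM (vertical axis, linear, from 0) of each gene is plotted for the 3 libraries of each group, with the pool number over each point and the mean and SD beside them. For Nefl and Nefm the KO TRAP points lie below all WT TRAP points and above all or nearly all input points, and Prph stays under 7.5 CPM in every library.

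TRAP libraries were compared with input over both genotypes to ask which subunits were enriched in the neurons with tagged ribosomes. This comparison averages over genotype and did not enter the choice of genes. Nefl, Nefm and Ina were higher in TRAP, while Nefh and Prph did not pass the test. Of the 5 genes, 3 were called at an adjusted p under 0.05, all higher, where 42.2% of the 13214 genes tested were called in either direction. Of all genes tested, 19.6% were called higher and 22.5% lower. With each pool left out in turn, KO pool 2 and WT pool 1 included, these 3 genes passed the test each time. Without KO pool 2 the log2 differences were 0.49 for Nefl, 0.51 for Nefm and 0.31 for Ina, and without WT pool 1 they were 0.63, 0.67 and 0.35. In bulk libraries, more cells of a kind and more RNA per cell cannot be told apart. TRAP RNA was also selected by its binding to ribosomes and input RNA was not, so the ratio is not one of RNA amount alone.

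For Nefl, the core subunit, WT TRAP 1, 2 and 3 held 748, 709.7 and 837 CPM, and KO TRAP 2, 3 and 4 held 598.4, 648 and 599.5 CPM. In input, WT 1, 2 and 3 held 578, 414 and 501 CPM, and KO 2, 3 and 4 held 346, 563 and 419 CPM. Every TRAP library was above every input library. TRAP exceeded input by 0.55 on the log2 scale (standard error 0.10), with an adjusted p of 0.00044 by edgeR's quasi-likelihood test, which was adjusted over all genes tested.

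Nefm, which carries the shorter of the phosphorylated tails, was close to Nefl in counts. WT TRAP 1, 2 and 3 held 743, 700.3 and 871 CPM, and KO TRAP 2, 3 and 4 held 538, 584 and 521 CPM. In input, WT 1, 2 and 3 held 537, 372 and 465 CPM, and KO 2, 3 and 4 held 319.7, 519 and 407 CPM. All WT TRAP libraries were above all input libraries, whereas KO TRAP 4 lay under WT input 1. TRAP exceeded input by 0.58 on the log2 scale (standard error 0.11), with an adjusted p of 0.000709 by edgeR.

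Ina, the partner subunit in central neurons, spread less than Nefl and Nefm in input, relative to its mean. WT TRAP 1, 2 and 3 held 315, 354 and 294 CPM, and KO TRAP 2, 3 and 4 held 301, 305 and 269.5 CPM. In input, WT 1, 2 and 3 held 280.1, 254 and 254 CPM, and KO 2, 3 and 4 held 240.4, 220.1 and 242 CPM. Only KO TRAP 4 lay within the range of the input libraries, under WT input 1. TRAP exceeded input by 0.30 on the log2 scale (standard error 0.07), with an adjusted p of 0.00101 by edgeR.

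Nefh, which carries the longest tail and is the last subunit to be made in developing neurons, did not pass the test between TRAP and input, and was higher in TRAP in 5 of 6 pools. WT TRAP 1, 2 and 3 held 133, 131 and 122 CPM, and KO TRAP 2, 3 and 4 held 110.2, 99.9 and 119.7 CPM. In input, WT 1, 2 and 3 held 132, 81.8 and 110.3 CPM, and KO 2, 3 and 4 held 105, 126 and 117 CPM. TRAP and input libraries overlapped, and WT input 2 was the lowest of all 12. The log2 ratio of TRAP to input was 0.09, with a 95% interval from -0.11 to 0.29 (adjusted p = 0.497 by edgeR), which overlaps the interval of Ina, from 0.16 to 0.45. The ratio for Prph was 0.63, but its interval ran from -0.24 to 1.51, so a difference was not detectable at its counts. Single pools moved both values, that of Prph to 0.26 without WT pool 3, 0.33 without KO pool 2 and 1.02 without WT pool 2, and that of Nefh from 0.00092 without WT pool 2 to 0.18 without WT pool 1.

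Within pools, TRAP was compared with the input of the same mice. The log2 ratio of CPM, with 0.5 added to each value, ran from 0.20 to 0.79 for Nefl, from 0.17 to 0.91 for Nefm and from 0.15 to 0.47 for Ina, and each was higher in TRAP in 6 of 6 pools. TRAP was higher in all 6 pools for 18.2% of the genes tested. Each of the 3 genes gave p = 0.031 by exact two-sided sign flips, a permutation test whose smallest p over 6 pools this is, and 0.0521 after Benjamini-Hochberg adjustment over the 5 genes. Nefh ran from -0.34 in KO pool 3 to 0.68 in WT pool 2 and was higher in 5 of 6 pools (exact sign flips, p = 0.531). Prph ran from -0.91 to 1.96 and was higher in 4 of 6 pools (the same exact test, p = 0.312).

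**Figure D3:**
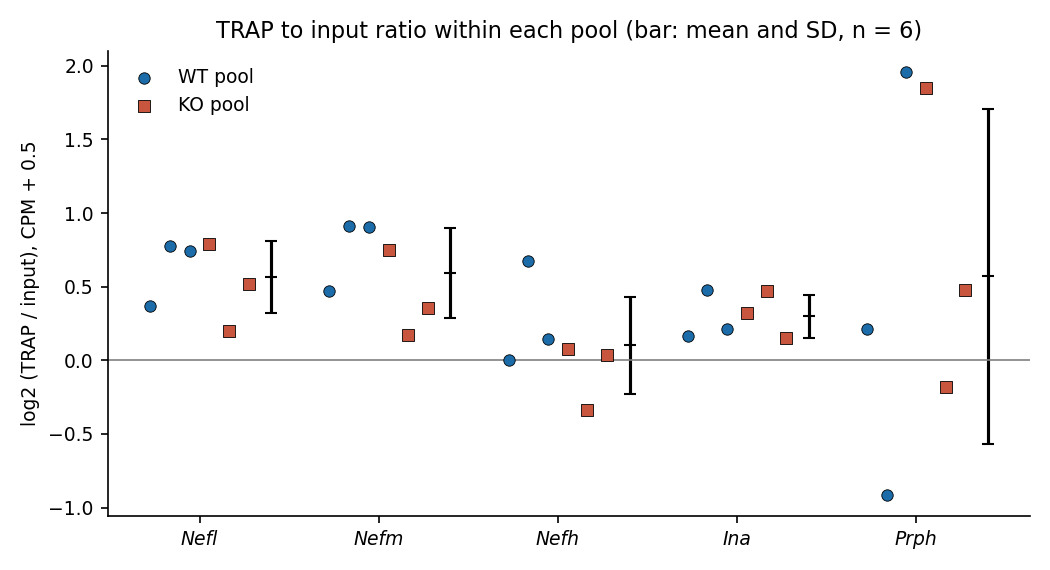
The log2 ratio of TRAP to input within each pool is plotted for each gene, with circles for WT pools, squares for KO pools and the mean and SD over 6 pools beside them. All points for Nefl, Nefm and Ina lie above 0, those for Nefh lie on both sides of it, and those for Prph spread from -0.91 to 1.96.

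The composition of the filament mRNAs was followed as the ratio of counts to those of Nefl within a library, which needs no scaling between libraries. Nefh per Nefl was 0.146 to 0.185 in WT TRAP and 0.198 to 0.229 in WT input, and 0.154 to 0.200 in KO TRAP and 0.224 to 0.302 in KO input. The ratio was lower in TRAP in 6 of 6 pools, with a mean of -0.47 on the log2 scale (SD 0.21, exact sign flips, p = 0.031, adjusted p = 0.0938 over the 3 ratios to Nefl). The heavy subunit thus made up less of the filament mRNA in TRAP than in input in every pool, though the difference did not pass the adjustment. Ina per Nefl was lower in TRAP in 5 of 6 pools, with a mean of -0.27 (exact sign flips, p = 0.0938, adjusted p = 0.141). Nefm per Nefl did not move one way, with a mean of 0.03, higher in TRAP in 3 of 6 pools (exact sign flips, p = 0.625).

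The KO and WT TRAP libraries were compared to ask which mRNAs of the tagged neurons differ between mice with and without floxed Fosb, and this is the comparison from which Nefl and Nefm were known. All 5 genes had a lower mean in KO, and Nefl, Nefm and Nefh did so without overlap of the groups. Nefm changed by -0.49 on the log2 scale (standard error 0.09), to 71.0% of the WT level, from 771 ± 88.7 CPM (SD, n = 3 pools) to 548 ± 32.5 CPM (SD, n = 3). Nefl changed by -0.31 (standard error 0.09), to 80.4%, from 765 ± 65.4 CPM (SD, n = 3) to 615 ± 28.5 CPM (SD, n = 3). Nefh changed by -0.23 (standard error 0.12), Ina by -0.14 (standard error 0.10) and Prph by -0.42 (standard error 0.54). By the fit over all genes, 1 of the 5, Nefm, was called, where 0.0682% of the 11727 genes tested were called, and nothing is read from this count because the comparison chose the genes. Every KO library was below every WT library for 6.12% of the genes tested. Single pools moved the smaller changes, with Nefh from -0.29 to -0.16, Ina from -0.06 without WT replicate 2 to -0.19 without WT replicate 3, and Prph from -0.06 without KO replicate 3 to -0.78 without KO replicate 2. Without WT replicate 3, Prph changed by -0.06 as well.

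The change of Nefm ran from -0.55 to -0.40 over the 15 alternatives and that of Nefl from -0.36 to -0.24, and Nefm was no longer called in 8 of them. All 15 reuse the TRAP libraries that chose these genes, so the kept sign supports nothing. The smallest changes came without WT replicate 3, which held the highest level of both genes, with -0.40 for Nefm and -0.24 for Nefl. Without KO replicate 2, the library with more GABA neuron reads, they were -0.48 and -0.29. Most pan-neuronal markers moved the same way, since 10 of the 11 had a lower mean in KO TRAP, with a median of -0.10 against -0.00 over all genes. Their sum was 14330 to 15105 CPM in WT TRAP and 12816 to 13946 CPM in KO TRAP, without overlap. By edgeR 0 of the 11 passed the test, 2 had an unadjusted p under 0.05, as did 709 of all 11727 genes tested, DESeq2 called 0, and no marker was at 0. Of the 11, Stmn2, a tubulin-binding protein of growing axons, fell most, by -0.29, followed by Snap25, a protein of synaptic vesicle release, by -0.21. Rbfox3 changed by -0.01 and Map2 by 0.02. Snap25 alone made up 5234 to 5433 CPM of the summed level of the 11 in WT TRAP and 4376 to 4986 CPM in KO TRAP, so the sum follows this gene most. Relative to this sum, the change was -0.36 for Nefm, -0.18 for Nefl, -0.10 for Nefh, -0.01 for Ina and -0.36 for Prph. Of 7 glutamate neuron markers, 5 were lower in KO TRAP and 2 higher (median -0.14). Of 10 GABA neuron markers tested, 5 were lower and 5 higher (median 0.04), and edgeR called 0 in either list. The part of the neuronal markers in the lower levels was not tested.

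**Figure D4:**
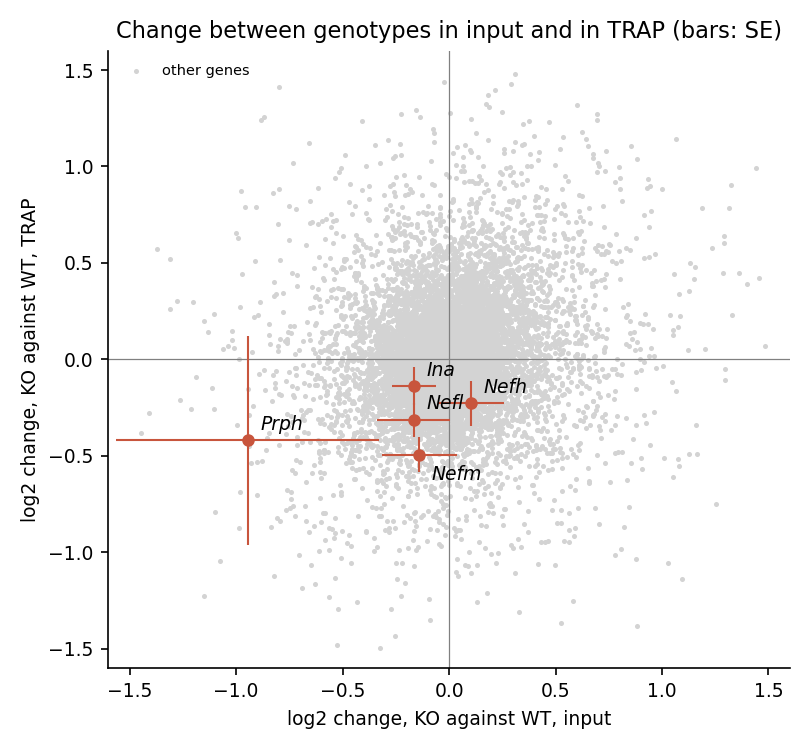
The log2 change of KO against WT in TRAP (vertical axis) is plotted against that in input (horizontal axis) for 11500 other genes in grey and for the 5 genes in red with their standard errors. Nefm and Nefl lie lowest of the well-counted genes of the group on the vertical axis, at -0.49 and -0.31, with -0.14 and -0.17 on the horizontal axis, and Prph has the widest bars.

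In the same libraries, the ratio of Nefm to Nefl separated the genotypes. Nefm per Nefl was 0.994, 0.987 and 1.04 in WT TRAP 1, 2 and 3 and 0.8995, 0.901 and 0.8697 in KO TRAP 2, 3 and 4. In input the groups lay together, at 0.929, 0.899 and 0.929 in WT and 0.924, 0.921 and 0.971 in KO. The mean log2 difference of KO from WT was -0.18 in TRAP and 0.03 in input. As the TRAP part of this difference uses the comparison that chose the genes, no test is given.

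**Figure D5:**
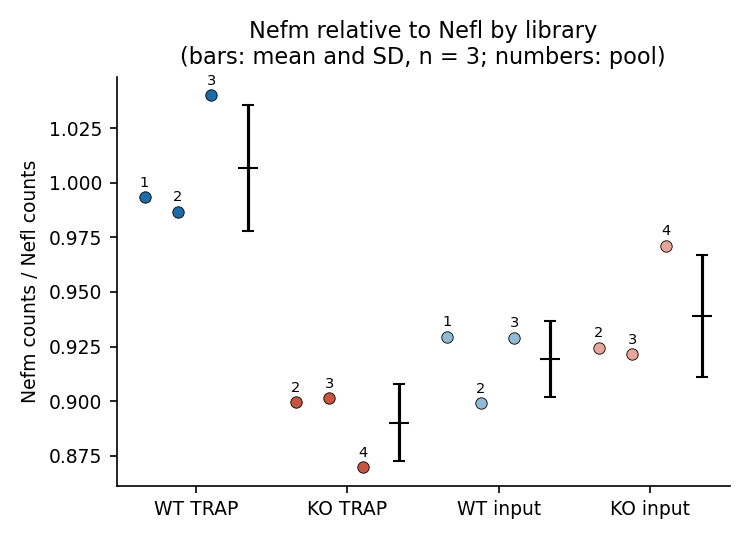
The ratio of Nefm counts to Nefl counts (vertical axis, not from 0) is plotted for each library, with the pool number over each point and the mean and SD of the 3 pools beside them. WT TRAP libraries lie at 0.987 to 1.04, above all libraries of the other groups.

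In the input libraries, which did not enter the choice of genes, none of the 5 differed between KO and WT at an adjusted p under 0.05. This is 0 of 5, where 0.031% of the 12816 genes tested, or 4 genes, were called by edgeR, 371 genes had an unadjusted p under 0.05, and DESeq2 called 8 genes and none of the 5. None of the 5 had an unadjusted p under 0.05 here. The log2 change was -0.17 for Nefl, with a 95% interval from -0.54 to 0.21, and -0.14 for Nefm, from -0.52 to 0.25, so these intervals include the changes seen in TRAP as well as 0. It was 0.10 for Nefh (interval -0.22 to 0.43), -0.16 for Ina (interval -0.38 to 0.05) and -0.95 for Prph (interval -2.24 to 0.35), and the adjusted p of each was 1.00 by edgeR. Ina was at 220.1 to 242 CPM in KO input and at 254 to 280.1 CPM in WT input, without overlap, as were 4.18% of the genes tested with KO lower.

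The input libraries of a group spread widely for Nefl and Nefm, and both genes put the 6 libraries in the same order. KO input 2 was the lowest and WT input 1 the highest, and the coefficient of variation of Nefl was 16.5% in WT input and 25% in KO input against 8.55% and 4.63% in TRAP. Ina varied by 5.66% and 5.23% in input and by 9.38% and 6.62% in TRAP. The summed level of the 9 oligodendrocyte markers was lowest in KO input 3, at 643 CPM, and in WT input 1, at 722 CPM, the libraries with the most Nefl, and highest in KO input 2, at 1069 CPM, the library with the least. WT input 3, with the next most Nefl, did not follow this, at 1062 CPM. In WT input 2 and KO input 4 it was 850.1 and 839 CPM, and in TRAP 152 to 201 CPM. None of these markers was at 0 in a whole group, and the part of the tissue makeup in the spread of Nefl was not tested. Without KO replicate 2 the change in input was -0.01 for Nefl and 0.02 for Nefm, and without KO replicate 3 it was -0.38 and -0.33. Without WT replicate 1, the input library with the fewest counts and the fewest genes detected, it was -0.04 and -0.0027. For Ina the change was -0.18 without KO replicate 2 and -0.11 without WT replicate 1, for Nefh 0.18 and 0.28, and for Prph -0.68 and -0.91. WT pools 2 and 3 moved Prph the most, to -0.44 without WT replicate 2 and -1.34 without WT replicate 3, and Nefh turned to -0.06 without WT replicate 2 and was 0.04 without KO replicate 3.

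The difference between the TRAP and input changes, which uses the TRAP comparison, was -0.35 for Nefm (standard error 0.22), -0.33 for Nefh (standard error 0.20), -0.15 for Nefl (standard error 0.21), 0.03 for Ina (standard error 0.14) and 0.53 for Prph (standard error 0.85). In fits of each genotype, the log2 ratio of TRAP to input of Nefm was 0.76 in WT and 0.39 in KO, and that of Nefl 0.63 and 0.46. That of Nefh was 0.26 and -0.09, that of Ina 0.30 and 0.31, and that of Prph 0.38 and 0.89. These pairs share their libraries with the comparison that chose the genes and are given as a description. By these values Ina was the gene of the group with the most even ratio in both genotypes, which was not tested.

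The genes whose pattern over the 12 libraries was most like each subunit were found by Pearson's r of log2 CPM among 13214 genes. The points share their pools and the split into TRAP and input, so r describes these libraries only. The 12 libraries include the TRAP libraries in which Nefl and Nefm were both chosen as lower in KO, so the r between them is in part set by that choice and supports nothing. Nefl and Nefm were each the nearest gene of the other, with r of 0.987. After Nefm, Necab2, Tagln3, Cd3eap and Ap3b2 were nearest to Nefl, with r of 0.976 to 0.958, and Vps72, Necab2, Lin7b and Hsp90aa1 were nearest to Nefm, with r of 0.953 to 0.942. Ina was nearest to Wdr18, Dus3l, Tbcc, Arl2 and Bcr (r of 0.954 to 0.936), and its r with Nefl was 0.716. Nefh was nearest to Mterfd1, Gm16339, Kctd17, Speg and Ddrgk1 (r of 0.900 to 0.846), and its r was 0.602 with Nefm and 0.567 with Nefl. Prph was nearest to Rfc1, Prune, Brix1, Usp13 and Serpina3g (r of 0.875 to 0.806), from its few counts.

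Other genes of the filament system were described from 6 lists. Between KO and WT, edgeR called 0 of 61 list genes tested in TRAP, and 0 of 64 in input, and DESeq2 called 0 in both. An unadjusted p under 0.05 was found for 4 of the 61 in TRAP, where 709 of all 11727 genes tested had one, and for 1 of the 64 in input, where 371 of 12816 had one, so nothing is read from these counts. Between TRAP and input, genes counted below as higher or lower passed an adjusted p of 0.05 by edgeR, as 19.6% of all genes tested did as higher and 22.5% as lower. The 10 tested genes of 13 other intermediate filament genes had 1 higher and 4 lower, with a median of 0.03 against -0.01 over all genes tested. Gfap, the filament of astrocytes, was lower in TRAP, at -3.32 on the log2 scale, as was Vim, vimentin, at -2.91, while Lmna, a nuclear lamin, was higher, at 0.85. Nefl, Nefm and Ina thus moved the opposite way from Gfap and Vim.

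Of 12 cytolinkers and proteins of the axonal membrane skeleton, 2 were called higher in TRAP and 9 lower, with a median of -0.45. The largest changes were those of the giant cytoskeletal linkers Macf1, at -1.77, and Dst, at -1.38, followed by Sptbn1, a spectrin, at -1.16. Of 13 axonal transport motors, 5 were called higher and 6 lower (median -0.05). Kif5a, the kinesin heavy chain known to carry neurofilaments outward, was lower, at -1.20, as was Dync1h1, the dynein heavy chain, at -0.73, while Dctn1, a dynactin subunit, was higher, at 0.78. Of 17 kinases and phosphatases that act on filament tails, 10 were called higher and 1 lower (median 0.26), with Cdk5, a kinase of the Lys-Ser-Pro motifs, higher at 0.47, Ppp2ca, a phosphatase subunit, higher at 0.43 and Rock1, another kinase, lower at -1.59.

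Of 5 genes for proteins that bind neurofilament mRNA, 4 were called higher and 0 lower (median 0.36), among them Hnrnpk at 0.56, Arhgef28 at 0.36 and Elavl4 at 0.27. Of 7 genes of filament turnover and chaperones, 2 were called higher and 3 lower (median -0.18). Stub1, a ubiquitin ligase, was higher at 0.64 and Cryab, a small heat shock protein abundant in glia, lower at -2.24, while Hspb1, another of this family, stood at no more than 0.979 CPM in TRAP against 1.53 to 3.56 CPM in input. Among pan-neuronal markers, 9 of 11 were called higher in TRAP and 1 lower, with a median of 0.54, close in size to Nefl and Nefm. Glutamate neuron markers had 4 of 7 higher and none lower (median 0.23), and GABA neuron markers none higher and 8 of 11 lower (median -1.66). Of the 7 endothelial markers, 4 were tested, with 0 higher and 3 lower.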

How the data were processed

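Polyribosome-bound (TRAP) and input RNA of the same pools was sequenced after the SMARTer Stranded Total RNA-Seq kit. The authors deposited raw counts per gene, for which TopHat had placed the reads on mm9 and HTSeq-count had assigned them to Gencode vM1 genes. They were not normalized or filtered, the strand setting was not given in the sources used here, and the submitters' processing notes name TopHat and DESeq2 without versions. Libraries whose label lacks the word input were read as TRAP. Reads on no gene were 20.6% to 27.1% and ambiguous reads 2.11% to 2.56%, and both were left out. In 2 libraries of a group, 0.794% to 1.99% of genes had identical counts, so none was a copy of another.

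Here counts were compared in R 4.3.3 with edgeR 4.0.16 (filter on expression by group, TMM, robust quasi-likelihood test, Benjamini-Hochberg adjustment over all genes tested, threshold 0.05). CPM values are TMM-normalized over 12 libraries. Exact sign-flip permutation tests over 6 pools used log2(CPM + 0.5), two-sided, or log2 ratios of counts. Exon stretches of 75 bases were aligned to mm9 with minimap2 2.31. The steps were tested on simulated data.

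The genes, the 14 lists and the tests were chosen with earlier results of these data known. Other genes named are Fosb, genes that overlap the 5, the 5 nearest by Pearson's r, and up to 3 genes per pathway list with the smallest p, except 1 that is not reported here. Elavl4, Snap25, Stmn2, Rbfox3, Map2, Slc6a4 and Gad2 were named after their values were seen. Of 136 list genes, 135 were matched to the annotation, 6 of them through a RefSeq synonym.

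TRAP and input libraries of the same number come from the same mice. Their deviations from group means correlated across genes by 0.0582 to 0.106, and those of different numbers by -0.101 to -0.00539. Alternatives were RLE and total counts, other filters, no mitochondrial genome genes, no robust estimation, DESeq2 1.42.0, the pool as a block, one fit of all libraries or one per genotype, another pseudocount, other lengths and leaving out each pool.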

Additional observations from a re-analysis of the deposited data

How the results depend on the processing

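The higher levels of Nefl, Nefm and Ina in TRAP than in input kept their direction in all 16 alternatives, and the block for the pool, which joins libraries of the same mice, changed no call of the 5 genes (log2 ratios 0.57 for Nefl, 0.59 for Nefm, 0.30 for Ina). In separate fits of each genotype, which hold fewer libraries and use the levels that chose the genes, 2 of the 5 genes were called in each genotype against 3 over both, since Ina lost its call in WT (0.30) and Nefm in KO (0.39), and Nefh turned to -0.086 in KO. Calls over all genes fell too, from 5572 of 13214 over both to 3096 of 12426 in WT and 3626 of 12463 in KO. Between genotypes in input, Nefm turned to 0.022 without KO replicate 2, in a range of -0.33 to 0.022 over single pools left out, and Nefh to -0.064 without WT replicate 2, in a range of -0.064 to 0.28, all with an adjusted p of at least 0.917 by edgeR for Nefm and 0.948 for Nefh.

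Between genotypes in TRAP, the count of the 5 genes called fell from 1 to 0 with total counts, without robust estimation, with the pool number as a block, in the fit of all 12 libraries, and without KO replicate 2, 3 or 4 or WT replicate 3, so leaving out a pool gave 0 to 1. The cause was not tested. The count of all genes called was 8 in the main setting, 41 without a filter, 14 with DESeq2 and 5 to 20 without single pools. In input it was 4, and 19 without a filter, 8 with DESeq2, 20 with the block, 7 in the fit of all libraries and 1 to 5 without single pools. WT and KO numbers stand for different mice, and same-numbered libraries correlated by -0.0697 and -0.0115 in TRAP and by -0.0634 and 0.00294 in input, so this block pairs nothing.

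With whole exon lengths in place of unshared bases, Nefl in WT TRAP stood at 226, Nefm at 133 and Ina at 99.0 CPM per kilobase, in the same order. In KO TRAP, Nefm at 90.2 to 101 and Ina at 83.2 to 94.1 then overlapped. Ina came above Nefm in WT input (81.1 against 79.2) and in KO input (72.3 against 71.8). Counts of Prph limit its comparisons. P-values measure the spread between 3 pools a group.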
